A study of Mus musculus with 48 samples.

Results

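The genes described here handle thyroid hormone inside the cell: the transporter gene Slc16a10, the deiodinase genes Dio2 and Dio3, and the receptor genes Thra and Thrb. They were chosen by name, not by their measured values, and these 5 genes were all found among the 27179 genes of the count table. The thyroid releases mainly thyroxine, a prohormone, which enters cells through membrane carriers such as MCT10 (encoded by Slc16a10). Inside the cell, the type 2 deiodinase (Dio2) turns thyroxine into the active hormone triiodothyronine, and the type 3 deiodinase (Dio3) inactivates both. Triiodothyronine then binds the nuclear receptors TRα (Thra) and TRβ (Thrb), which regulate contractile and metabolic genes in skeletal muscle, and the hormone is known to shift muscle from slow toward fast myosin and from perinatal to adult myosin.

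The data are RNA-seq gene counts from 4 muscles of the hindlimb, taken from male mice at E18.5, shortly before birth, and from adult males. All were of the inbred strain FVB/NJ, and the labels name no allele or treatment. Soleus (shank) and vastus intermedius (thigh) are the slow-biased muscles, rich in slow fibres, and gastrocnemius (shank) and vastus lateralis (thigh) are the fast-biased ones. Each stage had 6 animals, and each animal gave 1 library per muscle, so the 8 groups of stage and muscle held 48 libraries with totals of 14.9 to 32.4 M counts. The design text dates the adult time point to P56, while the protocol speaks of adult mice 3 to 4 months old, so the stage is only called adult here. Animals are named by the date tags of their libraries, lettered A to F within a stage, and the letters do not link the stages. The library names do not say which step the date tag marks. E18.5 animals C, D and E share 1 date, and no date holds both stages, so stage and date cannot be told apart.

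One library, labelled adult vastus intermedius of animal B, was left out by the rule that chose the genes, because its overall profile was embryonic. Its summed skeletal muscle markers, 27655 CPM, lay within the range of the E18.5 libraries. Its 5 genes read 0.309 CPM for Thrb, 111 CPM for Thra, 12.028 CPM for Dio2, 0.464 CPM for Dio3 and 18.7 CPM for Slc16a10. Adult vastus intermedius therefore had 5 libraries, and calls lost when the library is put back are given beside the result. Levels are CPM, counts relative to the library total, scaled by TMM, which corrects for the few genes that fill much of a muscle library, and are given as mean ± SD. Differences are log2 fold changes ± SE from edgeR's quasi-likelihood test over all genes, with p-values adjusted by Benjamini-Hochberg, and a gene is said to be called when its adjusted p is below 0.05. The libraries are from whole muscle, so fewer cells of a type and less RNA per cell cannot be told apart. Skeletal muscle markers (Acta1, Ckm, Des, Ttn and Mb) summed to 81906 CPM or more in every adult library and to 8124 to 32172 CPM at E18.5.

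The stretches of 250 bases before the transcription starts of Slc16a10, Dio2, Dio3 and Thrb are shown here, as the levels of these genes moved between muscles or stages. Thra, whose level also moved, had no promoter entry in the source used. They are from RefSeq for build GRCm38.p6, 5′ to 3′ on the strand of the gene, and its starts can differ from those of the annotation given next. The windows are chr10:40142255-40142504 on the minus strand for Slc16a10, chr12:90739039-90739288 on the minus strand for Dio2, chr12:110278980-110279229 on the plus strand for Dio3, and chr14:17660710-17660959 on the plus strand for the more upstream of 2 listed Thrb starts. Capitals mark matches on either strand to the motif TGACGTCA, known as the cyclic AMP response element, to AGGTCA, known as the half-site of hormone receptors, or to TATAAA, known as the TATA box. No match overlapped another in the windows shown.
Slc16a10: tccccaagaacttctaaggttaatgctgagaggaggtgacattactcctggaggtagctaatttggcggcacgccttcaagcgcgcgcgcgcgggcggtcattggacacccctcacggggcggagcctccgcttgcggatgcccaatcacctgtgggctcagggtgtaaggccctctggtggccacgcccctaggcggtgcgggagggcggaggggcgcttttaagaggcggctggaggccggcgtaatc
Dio2: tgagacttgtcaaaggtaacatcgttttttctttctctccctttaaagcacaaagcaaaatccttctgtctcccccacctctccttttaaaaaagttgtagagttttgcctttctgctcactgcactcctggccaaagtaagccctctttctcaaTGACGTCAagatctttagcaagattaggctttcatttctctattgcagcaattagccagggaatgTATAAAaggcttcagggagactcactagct
Dio3: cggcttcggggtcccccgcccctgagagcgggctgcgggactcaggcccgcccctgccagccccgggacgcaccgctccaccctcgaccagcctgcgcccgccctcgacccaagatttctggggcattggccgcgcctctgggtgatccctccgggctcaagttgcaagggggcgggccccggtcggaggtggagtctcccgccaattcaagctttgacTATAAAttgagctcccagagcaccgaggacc
Thrb: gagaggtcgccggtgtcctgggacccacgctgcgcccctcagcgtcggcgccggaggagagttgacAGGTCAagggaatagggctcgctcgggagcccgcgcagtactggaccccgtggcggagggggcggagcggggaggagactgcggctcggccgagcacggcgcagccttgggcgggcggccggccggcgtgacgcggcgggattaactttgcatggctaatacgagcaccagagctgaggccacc
Dio2 held TGACGTCA at -95 and TATAAA at -30, counted from the first base of the match to the start. Dio3 held TATAAA at -31, and the upstream Thrb window held AGGTCA at -184. Among 32851 promoters of the same length, 1.55% held TGACGTCA, 14.02% held AGGTCA and 12.4% held TATAAA. The GC content was 41.6% for Dio2, 64.4% for Slc16a10, 69.6% for Dio3 and 71.6% for the upstream Thrb window, beside a median of 52.4%. The window of the other listed Thrb start, not shown, had a GC content of 44.0% and held TATAAA at -167. A match is a description of the letters and not a site shown to be used.

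By the GENCODE M21 annotation of the same build, the genes lie at chr10:40033532-40142258 (Slc16a10, minus strand), chr12:90724552-90738438 (Dio2, minus), chr12:110279068-110281097 (Dio3, plus), chr11:98740638-98769006 (Thra, plus) and chr14:17660261-18038090 (Thrb, plus). The 3′ end of Thra shares 263 exon bases, 5.7% of its exons, with the antisense gene Nr1d1, a clock-linked repressor. No source used here states whether counting used strand, and reads from that stretch cannot be told apart between these genes. Dio2 shares 100 exon bases, 1.72% of its exons, with Gm26512, which has no row in the count table, and Dio3 shares none with its neighbour Dio3os.

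Adult fast-biased muscles held the most Slc16a10. In adult gastrocnemius its level ran from 99.9 through a median of 129 to 178 CPM, and in adult vastus lateralis from 118 through 137 to 156 CPM. In adult soleus it ran from 18.98 through 21.9 to 25.3 CPM. The 5 adult vastus intermedius libraries, of animals A, C, D, E and F, read 46.2, 28.1, 43.8, 68.7 and 49.5 CPM. The groups were ordered soleus, vastus intermedius and then the fast-biased muscles, and none of the libraries of the slow-biased muscles reached the lowest fast-biased one. Slow-biased muscles were lower by a log2 fold change of -2.04 ± 0.11 (edgeR adjusted p = 3.8e-13), which is 4.12-fold. Slc16a10 was lower in soleus than in gastrocnemius in 6 of 6 animals and lower in vastus intermedius than in vastus lateralis in 5 of 5. Gastrocnemius and vastus lateralis did not differ beyond their spread (-0.03 ± 0.15, edgeR adjusted p = 0.934).

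At E18.5 Slc16a10 was low in every muscle. It averaged 17.2 ± 2.77 CPM in soleus, 14.8 ± 1.499 in gastrocnemius, 20.95 ± 1.78 in vastus intermedius and 22.8 ± 3.39 in vastus lateralis (SD, n = 6 each). From E18.5 to adult it rose by 3.18 ± 0.15 on the log2 scale in gastrocnemius (edgeR adjusted p = 6.49e-24), 2.59 ± 0.14 in vastus lateralis (4.64e-21) and 1.17 ± 0.14 in vastus intermedius (6.25e-10). In soleus the change was 0.36 ± 0.14 (edgeR adjusted p = 0.0184), and this call is not firm: the adjusted p was 0.0663 with upper-quartile scaling, 0.0536 with the left-out library, 0.0782 without E18.5 animal C, 0.0764 with embryos A, B and F and 0.072 with C, D and E, and CPM without TMM scaling ran the other way, from 24.7 at E18.5 to 19.3 in adults. The adult muscle groups did not overlap with E18.5 for the 2 fast-biased muscles and vastus intermedius.

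Dio2, which encodes the activating deiodinase, had the opposite adult pattern. Adult soleus ran from 13.7 through a median of 18.4 to 27.7 CPM, and in the same order of animals the vastus intermedius libraries read 12.9, 24.3, 16.1, 9.83 and 13.7 CPM. Adult gastrocnemius ran from 3.29 through 6.30 to 8.27 CPM, and adult vastus lateralis from 2.03 through 3.49 to 4.07 CPM. Every slow-biased library was above every fast-biased one. The difference was 1.97 ± 0.17 on the log2 scale (edgeR adjusted p = 4.32e-10), or 3.91-fold, with the slow-biased muscle higher in 6 of 6 animals in the shank and 5 of 5 in the thigh. Soleus and vastus intermedius did not differ beyond their spread (0.29 ± 0.23, edgeR adjusted p = 0.438), while gastrocnemius was above vastus lateralis by 0.84 ± 0.24 (0.0409). The vastus intermedius library of animal C, with the highest Dio2 of that muscle, also had the highest summed adipocyte markers (424 CPM against 6.82 to 9.47 CPM in the other 4) and tendon markers (861 against 42.008 to 51.3 CPM), and the highest Schwann cell, fibroblast and leukocyte markers. Their part in its level was not tested, and without animal C the thigh slow-to-fast difference of Dio2 was 2.02 on the log2 scale and was still called.

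At E18.5 Dio2 differed by region of the limb instead. It averaged 15.4 ± 3.28 CPM in vastus intermedius and 11.2 ± 4.17 in vastus lateralis, the thigh muscles, against 5.69 ± 1.84 in soleus and 5.63 ± 0.460 in gastrocnemius, the shank muscles (SD, n = 6 each). The thigh was higher by 1.19 ± 0.15 on the log2 scale (edgeR adjusted p = 7.14e-06), in 6 of 6 animals. With animals A, B and F alone the difference was 1.06 and with C, D and E, which share a date, 1.31, and both were called. From E18.5 to adult, Dio2 rose in soleus by 1.74 ± 0.22 (edgeR adjusted p = 2.4e-09) and fell in vastus lateralis by 1.74 ± 0.24 (7.93e-09). It was 0.09 ± 0.23 higher in gastrocnemius (edgeR adjusted p = 0.708) and 0.00 ± 0.23 in vastus intermedius (0.996), neither called. Without TMM scaling the Dio2 mean of vastus intermedius went from 19.7 to 11.97 CPM and that of gastrocnemius from 8.18 to 3.98 CPM.

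Dio3, the inactivating deiodinase, was near the limit of detection. At E18.5 it averaged 1.04 ± 0.443 CPM in gastrocnemius, 0.568 ± 0.281 in soleus, 0.526 ± 0.525 in vastus lateralis and 0.246 ± 0.129 in vastus intermedius (SD, n = 6 each), from 2 to 59 counts per library. In adults it had 0 to 10 counts per library, and 1 of 6 soleus, 3 of 5 vastus intermedius, 1 of 6 gastrocnemius and 1 of 6 vastus lateralis libraries held no count. A count of 0 allows up to 3 counts, or 0.093 to 0.201 CPM by library before TMM scaling. The adult groups overlapped with one another, and Dio3 did not pass the filter on low counts for the tests between adult muscles.

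Dio3 was lower in adults than at E18.5, at -1.55 ± 0.65 in soleus (edgeR adjusted p = 0.0289) and -1.53 ± 0.62 in gastrocnemius (0.0225). In vastus intermedius the value was -1.502 ± 0.83 (edgeR adjusted p = 0.102) and in vastus lateralis -1.36 ± 0.67 (0.0611), not called. These calls depended on which animals were included: without 1 animal at a time the adjusted p reached 0.0943 in soleus (without E18.5 F, and over the threshold also without adult E, adult F or E18.5 B), and 0.0592 in gastrocnemius (without E18.5 A, and also without adult B). With embryos C, D and E both were lost, at -1.01 in soleus (edgeR adjusted p = 0.311) and -1.33 in gastrocnemius (0.143). Conversely, the value of vastus intermedius was called without adult D (edgeR adjusted p = 0.0344), and that of vastus lateralis without adult D or E18.5 C or D (as low as 0.0295), with upper-quartile scaling and with DESeq2. At E18.5 Dio3 was lower in the thigh than in the shank, at -1.11 ± 0.37 (edgeR adjusted p = 0.0287), in 4 of 6 animals. That call was lost without A, B, C or F, with adjusted p up to 0.113, and was -0.67 (0.546) with C, D and E alone against -1.49 (0.00736) with A, B and F. In the authors' deposited table, the adult slow-minus-fast log2 value of Dio3 was -0.96, with an adjusted p of 0.194.

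Per kilobase of gene length, Dio3 formed 35.3 ± 11.6% of the summed Dio2 and Dio3 signal in E18.5 gastrocnemius, 23.2 ± 7.32% in soleus, 12.1 ± 9.81% in vastus lateralis and 4.87 ± 2.30% in vastus intermedius (SD, n = 6 each). In adults the share was 3.12 ± 1.92% in soleus and 1.66 ± 2.30% in vastus intermedius, beside 15.7 ± 11.6% in gastrocnemius and 17.7 ± 15.2% in vastus lateralis. The spread between libraries was wide, and the share rests on few Dio3 counts.

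Thrb carried the widest change of the 5 genes between the stages. At E18.5 the 24 libraries held 1 to 38 Thrb counts each, with group means of 0.300 to 0.449 CPM. In adults Thrb averaged 70.1 ± 10.99 CPM in soleus (SD, n = 6) and 65.3 ± 8.88 in vastus intermedius (n = 5), against 53.7 ± 3.85 in gastrocnemius and 40.9 ± 7.42 in vastus lateralis (n = 6 each). The lowest adult library read 33.1 CPM and the highest E18.5 library 0.993 CPM, so the stages were far apart in every muscle. The rise was 170.0-fold in gastrocnemius (7.41 ± 0.35 on the log2 scale, edgeR adjusted p = 2.47e-23), 162-fold in soleus (7.34 ± 0.34), 142-fold in vastus intermedius (7.15 ± 0.34) and 103-fold in vastus lateralis (6.69 ± 0.34), and was called in each. The size of the rise and the order of the muscles depended on the embryos, whose few Thrb counts are the base of these folds: with A, B and F the log2 rise was 6.67 in soleus and 7.71 in vastus lateralis, the highest of the 4 muscles, and with C, D and E it was 8.84 and 6.10. It was called in all 4 muscles with either set. The Thrb level of the left-out library, 0.309 CPM, lay within the E18.5 range. Among adult muscles Thrb was higher in the slow-biased ones by 0.56 ± 0.08 (edgeR adjusted p = 1.39e-06), or 1.47-fold, in 6 of 6 animals in the shank and 5 of 5 in the thigh. The order ran soleus, vastus intermedius, gastrocnemius, vastus lateralis, and soleus and vastus intermedius did not differ beyond their spread (0.09 ± 0.11, edgeR adjusted p = 0.641). With the left-out library kept under its label, the adult difference was 0.41 ± 0.34 and was not called (edgeR adjusted p = 0.292).

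Thra differed little between groups. E18.5 libraries ran from 75.2 to 125 CPM and adult libraries from 55.5 to 96.4 CPM, and these ranges overlapped. Group means at E18.5 were 108 ± 15.03 CPM in vastus lateralis, 97.7 ± 13.0 in gastrocnemius, 94.5 ± 8.36 in vastus intermedius and 89.0 ± 14.4 in soleus (SD, n = 6 each). In adults they were 85.8 ± 9.72, 84.2 ± 5.33, 72.0 ± 7.03 (n = 5) and 67.1 ± 8.76 CPM in the same order. In adults Thra was lower in slow-biased muscles, at -0.26 ± 0.07 (edgeR adjusted p = 0.00165), in 6 of 6 animals in the shank and 5 of 5 in the thigh. From E18.5 to adult it fell, with log2 fold changes of -0.41 ± 0.10 in soleus (edgeR adjusted p = 0.000368), -0.39 ± 0.11 in vastus intermedius (0.00105), -0.33 ± 0.10 in vastus lateralis (0.00262) and -0.21 ± 0.10 in gastrocnemius (0.049). The call in gastrocnemius was lost with limma-voom (adjusted p = 0.0594), with the left-out library (edgeR adjusted p = 0.0846) and without adult B or E18.5 B, C, D or E. Without TMM scaling the Thra means fell further, from 127 to 59.2 CPM in soleus and from 140.04 to 52.6 CPM in vastus lateralis. The adult means without TMM scaling were 55.5 CPM in vastus intermedius and 55.6 CPM in gastrocnemius. The lower Thra of slow-biased adult muscles was therefore not seen without that scaling.

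The fall of Thra moved with the date tag of the embryos. In E18.5 soleus, animals C, D and E, of 1 date, read 110.4, 96.8 and 96.5 CPM, against 76.8, 78.0 and 75.2 CPM in A, B and F. The same separation without overlap held in E18.5 gastrocnemius and vastus lateralis, and in vastus intermedius the values overlapped. With A, B and F as the only E18.5 animals, Thra changed by -0.19 in soleus (edgeR adjusted p = 0.0874), -0.06 in gastrocnemius (0.614) and -0.15 in vastus lateralis (0.185), none called, and by -0.32 in vastus intermedius (0.00701). With C, D and E the changes were -0.59, -0.36, -0.50 and -0.46 in that order of muscles, all called. Nr1d1, whose 3′ end overlaps that of Thra, was higher in adults by 2.88 to 3.79 on the log2 scale, the other direction from Thra. Among adult muscles these genes ran in the same direction, with r = 0.747 between their log2 CPM over the 23 adult libraries. Mean Nr1d1 was lowest in adult soleus (171 ± 75.0 CPM) and highest in adult vastus lateralis (270 ± 96.3 CPM), as was mean Thra. The part of reads from the overlap in the Thra levels was not tested.

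**Figure D1:**
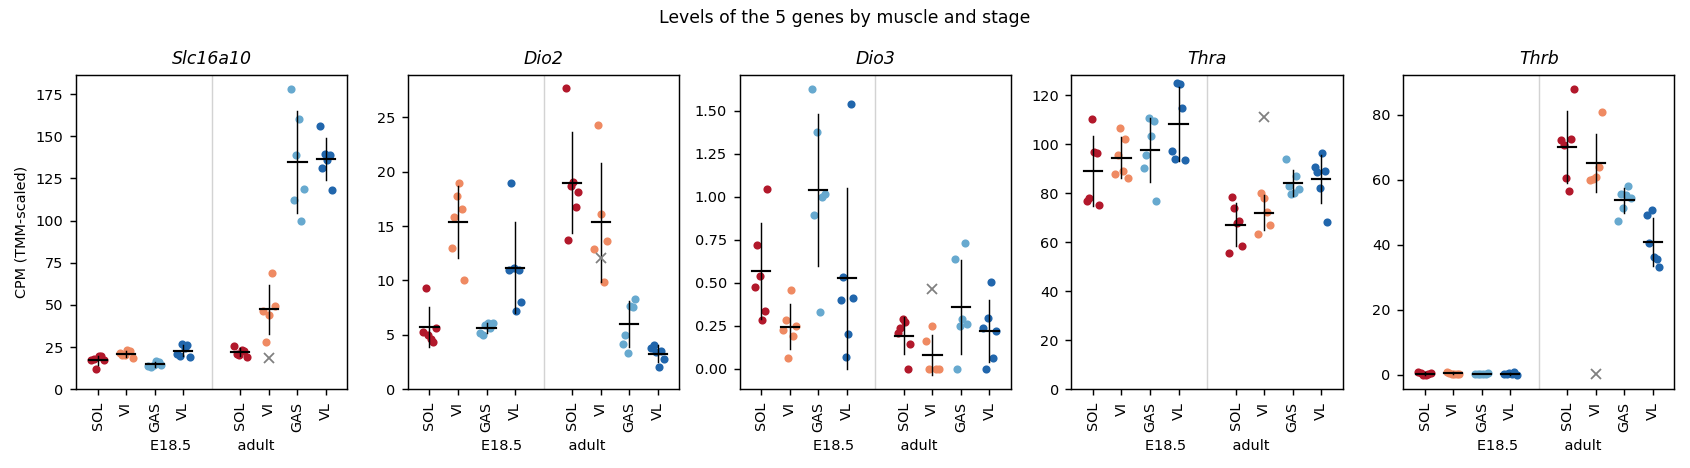
Level of each gene in CPM (TMM-scaled, linear axes) in every library, by muscle and stage; bars are group means and vertical lines ± SD (n = 6, adult vastus intermedius 5). On the axis SOL is soleus, VI vastus intermedius, GAS gastrocnemius and VL vastus lateralis; the grey cross is the left-out library, not in the mean. Slc16a10 is highest in the adult fast-biased muscles, with means of 135 and 137 CPM, Dio2 is highest in adult soleus, and Thrb lies below 1 CPM in every E18.5 library.

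The 2 receptor genes can be compared per kilobase of the gene length in the count table. Thrb made up 0.11001% to 0.178% of the summed Thra and Thrb signal at E18.5, as group means. In adults its share was 26.5 ± 4.94% in soleus and 23.8 ± 3.46% in vastus intermedius, against 17.97 ± 1.62% in gastrocnemius and 14.1 ± 2.26% in vastus lateralis. Every slow-biased adult library, at 20.5% or more, was above every fast-biased one, at 19.1% or less. Per kilobase, the Thra signal stayed above that of Thrb in all groups. Gene counts do not separate the transcripts of a gene, of which the annotation lists 9 for Thra and 7 for Thrb. The share depends on the length given for Thra, which is 2246 bases in the count table and 4614 bases as the union of its annotated exons.

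**Figure D2:**
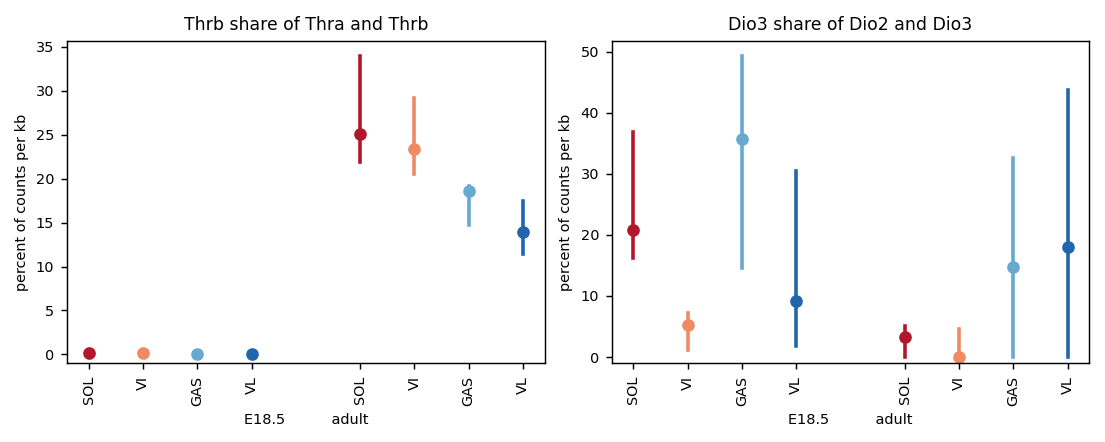
Share of Thrb in the summed Thra and Thrb signal (left) and of Dio3 in the summed Dio2 and Dio3 signal (right), in percent of CPM per kilobase; points are medians and lines run from the lowest to the highest library of a group. The Thrb share is below 1% in all E18.5 groups and between 11.4% and 34.004% in adult libraries.

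Counted over the set, adult slow-biased and fast-biased muscles differed in 4 of the 4 genes tested, beside 66% of all 14304 genes tested, and 4 genes are too few to set apart from that share. Dio2 and Thrb were higher in slow-biased muscles, and Slc16a10 and Thra were lower. In soleus against gastrocnemius 4 of 4 were called (53.5% of all genes); without adult A the call of Thra was lost (edgeR adjusted p = 0.0692). In vastus intermedius against vastus lateralis 3 of 4 were called (52.2%), the exception being Thra (-0.22 ± 0.10, edgeR adjusted p = 0.0589), which was called without adult C (0.0417) or F (0.0447). With the left-out library Thrb was called in neither pair, at 0.40 (edgeR adjusted p = 0.517) in the shank and 0.42 (0.476) in the thigh. Between the 2 slow-biased muscles only Slc16a10 was called, 1 of 4 beside 17.2% of all genes, with soleus lower, at -1.11 ± 0.16 (edgeR adjusted p = 2.53e-05). Gastrocnemius and vastus intermedius differed in 3 of 4 (40.2%), and gastrocnemius and vastus lateralis in 2 of 4, Dio2 and Thrb (5.64%). The slow-to-fast difference itself differed between shank and thigh for 1 of 4, Slc16a10 (8.1%), and was larger in the shank, with a difference of -1.08 ± 0.22 on the log2 scale (edgeR adjusted p = 0.00255); with the left-out library kept this was -0.92 and was not called (0.106).

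Adult thigh and shank differed in 3 of the 4 genes tested, beside 19.1% of all genes. Slc16a10 was higher in the thigh by 0.57 ± 0.11 (edgeR adjusted p = 0.000613), but it was higher in 3 and lower in 2 of the 5 animals. Dio2 was lower there, at -0.57 ± 0.17 (edgeR adjusted p = 0.0193), in 4 of 5 animals, as was Thrb, at -0.24 ± 0.08 (0.0379), in 5 of 5. Both calls were lost without animal D, E or F. That of Dio2 was also lost with limma-voom (adjusted p = 0.0502), and that of Thrb without B, with the left-out library (edgeR adjusted p = 0.557) and with the animal as a replicate block (0.0506). In the authors' deposited table for adult thigh and shank, none of these 3 genes passed. The DESeq2 adjusted p there was 0.721 for Slc16a10, 0.554 for Dio2 and 0.432 for Thrb. At E18.5 3 of 5 genes differed between thigh and shank (24.8% of all genes): Dio2 and Slc16a10 were higher in the thigh and Dio3 was lower. Slc16a10 was higher in the E18.5 thigh by 0.44 ± 0.08 (edgeR adjusted p = 0.000152), in 6 of 6 animals. Beside these differences, 4 of the 5 skeletal muscle markers were higher in the E18.5 thigh, 3 of the 6 tendon markers lower, and 4 of the 6 satellite and myogenic cell markers (Chodl, Myf5, Myod1 and Pax7) lower with 1, Calcr, higher, with summed muscle markers of 17602 to 32172 CPM there and 8124 to 22571 CPM in the shank; their part in the result was not tested.

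Of the 5 genes, edgeR called 0 between slow-biased and fast-biased muscles at E18.5, where it called 0.368% of all 15751 genes tested. At an unadjusted p below 0.05 there were 2 of 5, Dio3 and Thra; DESeq2 and limma-voom also called 0. With the animal as a replicate block Thra was called, at -0.16 ± 0.04 (edgeR adjusted p = 0.0477). Soleus against gastrocnemius gave 0 of 5 (0.286% of all genes) and 0 at the unadjusted threshold. Vastus intermedius against vastus lateralis gave 0 of 5 (0.0317%) and 2 at the unadjusted threshold, and without animal B, whose vastus lateralis library held 18.9 CPM of Dio2, Dio2 was called at 0.67 (edgeR adjusted p = 0.0486). DESeq2 and limma-voom called 0 in both of these pairs.

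**Figure D3:**
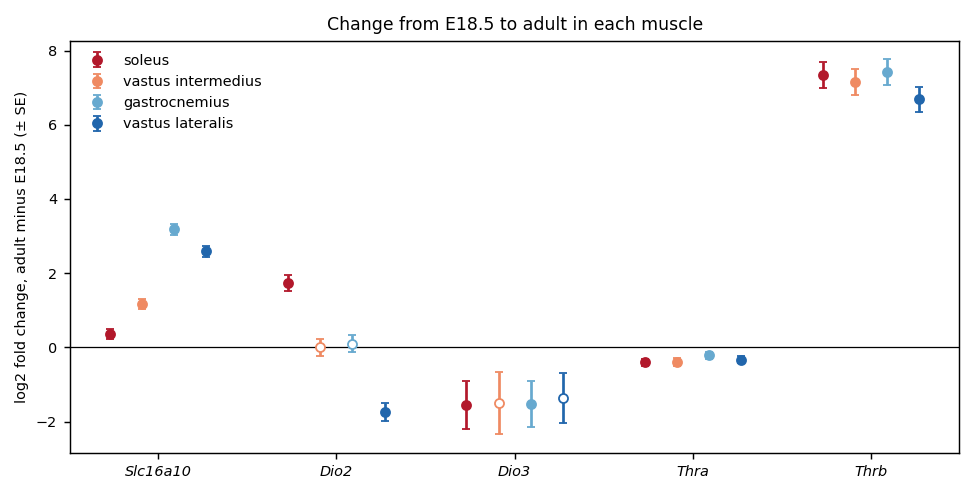
Log2 fold change from E18.5 to adult with its SE for each gene and muscle; filled circles passed edgeR's test at an adjusted p below 0.05 and open circles did not. Thrb rose by 6.69 to 7.41 in all 4 muscles, whereas Dio2 rose in soleus, fell in vastus lateralis and was near 0 in vastus intermedius and gastrocnemius.

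From E18.5 to adult, 5 of 5 genes were called in soleus (74.7% of all 16402 genes tested), 4 of 5 in gastrocnemius (78.5%), 3 of 5 in vastus intermedius (73.1%) and 4 of 5 in vastus lateralis (78.1%). These shares are near those of all genes. With either set of 3 E18.5 animals, A, B and F or C, D and E, 3 of 5 were called in soleus. The slow-to-fast difference changed with age for 2 of 5 genes, beside 50.8% of all genes. It moved by 1.69 ± 0.23 for Dio2 (edgeR adjusted p = 2.87e-08), from 0.24 ± 0.14 at E18.5 to 1.97 ± 0.17 in adults. For Slc16a10 it moved by -2.12 ± 0.14 (edgeR adjusted p = 1.81e-16), from 0.05 ± 0.07 to -2.04 ± 0.11. For Thra the change was -0.12 ± 0.10, for Thrb 0.20 ± 0.37 and for Dio3 -0.08 ± 0.57, none called. The Thrb value depended on the date of the embryos, being -0.80 (edgeR adjusted p = 0.0442) with A, B and F and 1.49 (0.00183) with C, D and E, on 1 to 38 Thrb counts per E18.5 library.

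The cell makeup of the samples also differed along these axes. In adult slow-biased muscles 6 of 6 endothelial and 5 of 5 tested leukocyte markers were higher, with summed endothelial markers of 527 to 785 CPM in slow-biased and 250.3 to 502 CPM in fast-biased libraries. Between the stages, 5 of 5 skeletal muscle markers were higher in adults and 4 of 6 fibroblast markers lower in each muscle. Of the other fibroblast markers, Dcn was higher in adults in all 4 muscles (0.75 to 0.95 on the log2 scale) and Dpt in soleus (1.56) and vastus intermedius (0.94). Of the 6 satellite and myogenic cell markers 5 or 6 were lower in adults, and Calcr was higher in soleus. Of the adipocyte markers, Adipoq, Cidec, Lep and Plin1 were higher in adults in all 4 muscles (3.56 to 11.35 on the log2 scale). Lep was at 0 in all libraries of E18.5 soleus, vastus intermedius and gastrocnemius. Cidea was lower in adult gastrocnemius (-3.27) and vastus lateralis (-3.32) and not called in soleus or vastus intermedius. Ucp1 of brown fat was at 0 in all libraries of adult soleus and gastrocnemius. The part of all these markers in the results was not tested.

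Within some adult muscles the levels of Slc16a10 or Dio2 ran in the order of the myosin makeup of the libraries. Myh4, the fastest myosin heavy chain, made up 32.1%, 2.41%, 10.7%, 61.2% and 20.8% of the counts of the 4 adult myosin genes (Myh7, Myh2, Myh1 and Myh4) in vastus intermedius of animals A, C, D, E and F. The library with the highest Myh4 share had the highest Slc16a10 and the lowest Dio2 of that muscle, and the one with the lowest Myh4 share had the lowest Slc16a10 and the highest Dio2. The 5 Dio2 levels fell in the exact order of rising Myh4 share. The library with the lowest Myh4 share was that of animal C, with the highest adipocyte and tendon markers of that muscle, whose part was not tested. In adult gastrocnemius, the 6 libraries had Myh4 shares of 84.9% to 98.4%, and their Slc16a10 levels rose from 99.9 to 178 CPM in the same order as the shares. No such order was seen for Dio2 in gastrocnemius, which by rising Myh4 share read 7.58, 5.03, 8.27, 3.29, 7.65 and 4.13 CPM, or for Slc16a10 in vastus lateralis, which read 131, 118, 156, 139, 136 and 139.6 CPM. Over the 23 adult libraries, log2 CPM of Slc16a10 and Myh4 correlated with r = 0.964, and of Slc16a10 and Dio2 with r = -0.889; libraries of 1 animal and of 1 muscle are not independent, and the values are descriptions. The r with Myh4 was -0.846 for Dio2, -0.681 for Thrb and 0.667 for Thra, and the r with Myh7 was 0.861 for Dio2, 0.835 for Thrb, -0.789 for Slc16a10 and -0.609 for Thra.

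**Figure D4:**
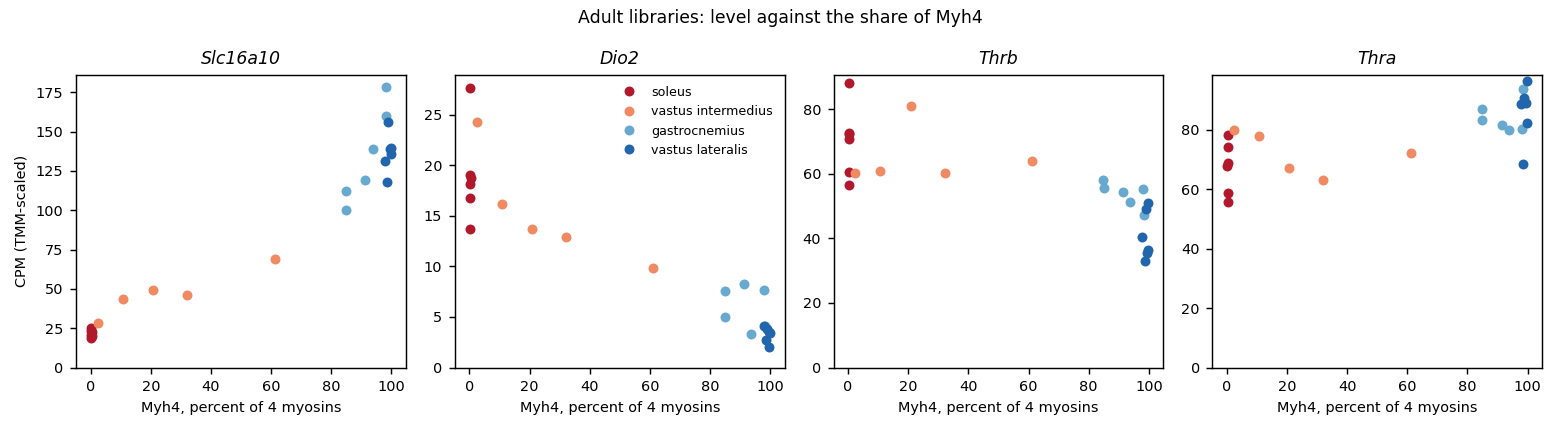
Level in CPM (linear axis) of 4 of the genes against the percentage of Myh4 among the counts of 4 adult myosin genes, 1 point per adult library (n = 23). Slc16a10 runs from 18.98 to 178 CPM and Dio2 from 27.7 down to 2.03 CPM between the soleus and fast-biased ends. The 5 vastus intermedius libraries lie between these for Slc16a10 and overlap soleus for Dio2.

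Ranked by the likeness of log2 CPM over the 23 adult libraries, the genes closest to Slc16a10 were Reep1 (r = 0.991), St3gal6 (0.99) and Phka1 (0.99), and those closest to Dio2 were Raph1 (0.965), Sptbn1 (0.96) and Slc35f5 (0.956). Closest to Thrb were Gca (0.897), Il6ra (0.892) and Rassf8 (0.883), and closest to Thra were Ltbp3 (0.894), Cc2d1a (0.885) and Rgma (0.875). Over the 47 libraries of both stages, Thrb was most like Abhd5, Trip10 and Stard10 (0.981 each), Slc16a10 most like Drap1 (0.984), Aamdc (0.983) and Gpd2 (0.981), and Dio2 most like Dock8 (0.832), Otulin (0.828) and Ppara (0.821). Thra was most like Prr12 (0.837), Angptl2 (0.836) and Zfp395 (0.831), and Dio3 most like Gm5621 (0.672), Fgf10 (0.659) and Asic1 (0.657). Over both stages these values are led by the gap between the stages.

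The other transporters and handling genes moved in both directions. Of 15 listed, 10 were tested in each fit. In adult slow-biased muscles 4 were higher and 4 lower (median log2 fold change 0.02, against 0.08 over all genes, of which 66% were called). Wsb1, of the ubiquitin ligase subunit that marks the type 2 deiodinase for degradation, was higher in slow-biased muscles by 1.01 ± 0.19. Slc7a8, of the amino acid transporter LAT2, was lower, at -1.77 ± 0.13, as was Crym, of the cytosolic hormone-binding protein µ-crystallin, at -0.91 ± 0.26. Between the stages, 7 of 10 fell in adults in soleus and in vastus intermedius and 5 of 10 in gastrocnemius and in vastus lateralis, and 1 or 2 rose. Of all genes, 73.1% to 78.5% were called in either direction, and 10 genes are too few to set apart from that share. Slc7a5, of the amino acid transporter LAT1, fell, with log2 fold changes of -1.94 to -3.17. Its group means went from 43.3 to 66.99 CPM at E18.5 to 7.13 to 12.8 CPM in adults, and it passed edgeR's test in all 4 muscles. Slc7a8 averaged 34.9 and 36.9 CPM in adult gastrocnemius and vastus lateralis, against 7.20 CPM in adult soleus and 14.8 CPM in adult vastus intermedius.

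**Figure D5:**
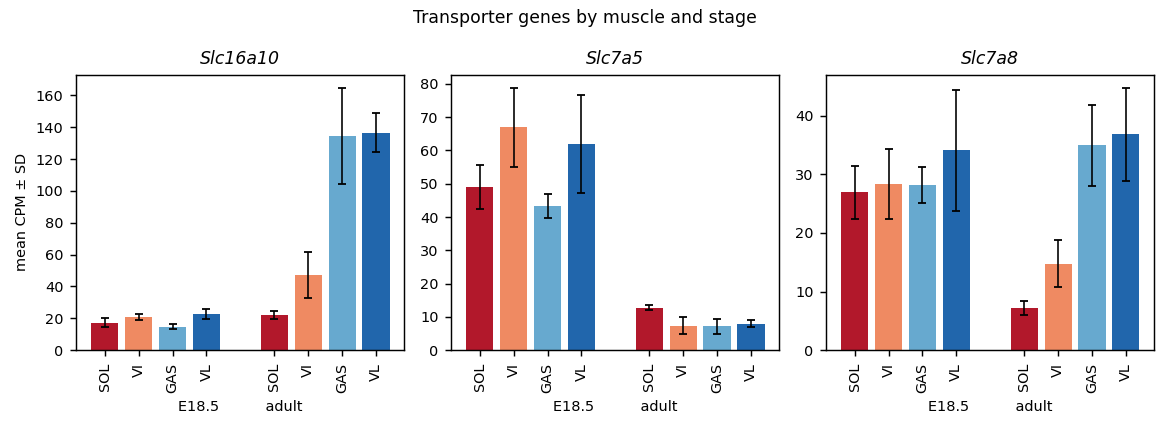
Mean CPM ± SD (n = 6, adult vastus intermedius 5) of the transporter genes Slc16a10, Slc7a5 and Slc7a8 by muscle and stage; bars start at 0 and each panel has its own axis. Slc16a10 is highest in adult gastrocnemius and vastus lateralis, and Slc7a5 is at 12.8 CPM or less in every adult group.

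Of 17 receptor partners and cofactors, 2 were higher and 8 lower in adult slow-biased muscles (median -0.24, against 0.08 over all genes, of which 66% were called). The retinoid X receptor genes, whose products pair with the thyroid hormone receptors on DNA, were among the lower ones: Rxrg at -1.88 ± 0.11 and Rxra at -1.21 ± 0.08. Carm1, a coactivator methyltransferase, was lower, at -1.15 ± 0.08, and the coactivator gene Ncoa3 was higher by 0.95 ± 0.09. With maturation 10 to 13 of the 17 rose and 1 to 3 fell in each muscle (median 0.45 to 0.69, against -0.20 to -0.07 over all genes, of which 73.1% to 78.5% were called). Rxra rose by 2.33 ± 0.10 in vastus lateralis, 2.31 ± 0.10 in gastrocnemius, 1.40 ± 0.10 in vastus intermedius and 0.96 ± 0.09 in soleus. At E18.5, edgeR called 0 of 17 between slow-biased and fast-biased muscles, where it called 0.368% of all genes. At an unadjusted p below 0.05 there was 1, and DESeq2 and limma-voom also called 0.

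Of 24 genes known to respond to thyroid hormone in muscle, 12 were higher and 8 lower in adult slow-biased muscles (median 0.53, against 0.08 over all genes, of which 66% were called). The strongest calls were for contractile genes that define the muscle groups: Myh7, the slow myosin, at 8.34 ± 0.80, Myh4 at -6.59 ± 0.45, the slow calcium pump gene Atp2a2 at 5.18 ± 0.34 and Myh2 at 4.32 ± 0.30. Between E18.5 and adult 17 of 24 rose in soleus and gastrocnemius, 18 in vastus intermedius and 13 in vastus lateralis, and 4, 4, 4 and 6 fell, beside 73.1% to 78.5% of all genes called (median 2.05 to 4.26, against -0.20 to -0.07 over all genes). Mb, of myoglobin, rose by 5.70 to 9.71 and the perinatal and embryonic myosins Myh8 and Myh3 fell, with log2 fold changes of -8.80 to -11.08 and -8.65 to -11.32. Hr, of a receptor corepressor, and Klf9, of a transcription factor, were chosen after their values were seen. Hr rose by 4.73 ± 0.27 in soleus, 6.22 ± 0.29 in vastus intermedius, 6.88 ± 0.28 in vastus lateralis and 7.57 ± 0.29 in gastrocnemius. Klf9 rose by 3.54 to 4.82. Gpd2, of the mitochondrial glycerol phosphate dehydrogenase, rose by 0.85 ± 0.16 in soleus and 4.64 ± 0.18 in gastrocnemius, and in adults it was lower in slow-biased muscles, at -3.05 ± 0.14. Hr was likewise lower in adult slow-biased muscles, at -1.96 ± 0.13, and Klf9 at -0.20 ± 0.07. In the E18.5 thigh 11 of 24 were higher and 1 lower than in the shank (median 0.53, against -0.03 over all genes, of which 24.8% were called), with Thrsp at 1.85 ± 0.23, Myh4 at 1.67 ± 0.26, Myh2 at 1.27 ± 0.22 and Myh8 at 1.197 ± 0.23. The skeletal muscle markers Acta1 (0.94), Ckm (1.01), Des (0.77) and Ttn (0.48) were higher there too, and their part in these counts was not tested. At E18.5 edgeR called 0 of 24 between slow-biased and fast-biased muscles, where it called 0.368% of all genes. At an unadjusted p below 0.05 there were 9, while DESeq2 called 3 and limma-voom 0.

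Dio3 lies at one end of an imprinted region of chromosome 12 that also holds Dlk1 and the noncoding gene Meg3. Of 9 genes listed there, Dio3 included, 7 fell from E18.5 to adult in soleus and gastrocnemius and 6 in the vastus muscles. Of all genes, 73.1% to 78.5% were called in either direction. That share also counts genes that rose, so the numbers that fell cannot be set against it directly. Dlk1 went from 701 to 847 CPM as E18.5 group means to 0.0275 to 1.56 CPM in adults, and Meg3 from 985 to 1545 CPM to 10.8 to 12.3 CPM. Rtl1 had 106 to 162 counts per E18.5 group and 0 in each adult group. The log2 fall of Meg3 was -6.52 to -7.07, beside -1.36 to -1.55 for Dio3. Dio3os, the noncoding gene next to Dio3, shared 0 exon bases with it, and was lower in adult slow-biased muscles, at -2.44 ± 0.38 (edgeR adjusted p = 4.84e-06).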

How the data were processed

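RNA-seq counts per gene for 48 libraries were used as deposited. The submitters' processing notes list STAR 2.7.11, Subread 2.0.6 with featureCounts, Trimmomatic 0.39.0, DESeq2 1.44.0 and FastQC 0.11.5, with build mm10. Neither the annotation behind the counts nor their strand setting is given in the sources used. The authors also deposited tables with log2 fold changes and adjusted p-values from DESeq2, from which a few values are quoted and gene symbols were taken. Of 27179 genes, 18780 took their symbol from those tables, 6501 from RefSeq and 1898 had none.

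Library totals ran from 14.9 to 32.4 M counts (median 22.8), and intervals and the limit of 3 counts for a count of 0 cover counting error only. Between libraries of 1 group, chi-square per degree of freedom was at least 10.23, so none was a repeat of another. Samples were grouped by stage and muscle from the labels, and 1 library was left out by the stated rule. Low counts were filtered with filterByExpr, libraries were scaled by TMM, and edgeR 4.0.16 quasi-likelihood tests were fitted in R 4.3.3 over all genes, by stage or over both, p-values being adjusted by Benjamini-Hochberg and called below 0.05. Each SE is the log2 fold change over the root of the F statistic. CPM shown are TMM-scaled, and correlations use log2 CPM with a prior count. The fits were tested on simulated data. Alternatives were DESeq2 1.42.0, limma 3.58.1 voom, upper-quartile scaling, no filter, the left-out library, a replicate block, leaving out 1 animal at a time and, added later, subsets by date.

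Each animal gave all 4 muscles, identified by its date tag, so libraries of an animal are paired; deviations of same-animal libraries had a mean correlation of 0.141 in embryos (other pairs -0.028) and 0.064 in adults (other pairs -0.013). The fit reported has no block. Replicates are separate animals. The members and lists were chosen with earlier results of these data known. Every member is named, with up to 4 called genes of each pathway list with the largest absolute log2 fold change in a comparison, the overlapping or neighbouring Nr1d1 and Dio3os, and the 3 genes most alike by Pearson r. A gene of the transporter list counts in its totals but is not reported here.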

Additional observations from a re-analysis of the deposited data

Results flagged for a closer look

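In 5 of the 40 groups of libraries tested for a single value far from the rest (5 genes in 8 groups), 1 library stood apart by Dixon's criterion, and chance alone flags about 1 group in 20. Thrb read 80.9 CPM in adult vastus intermedius of animal F, against 60.1 to 64.1 CPM in the other 4 libraries. Dio2 read 9.34 CPM in E18.5 soleus of animal B, against 4.37 to 5.60 CPM, and 18.9 CPM in E18.5 vastus lateralis of the same animal, against 7.16 to 11.1 CPM. Dio3 read 1.54 CPM in E18.5 vastus lateralis of animal E, against 0.0683 to 0.535 CPM. That library also had the highest summed adipocyte (31.9 CPM), leukocyte (127 CPM) and fibroblast (19042 CPM) markers of its group, whose part in the value was not tested. Slc16a10 read 11.98 CPM in E18.5 soleus of animal C, against 17.012 to 19.5 CPM.

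The other results were picked out because a difference between muscles itself differed between groups, by edgeR's test with Benjamini-Hochberg adjustment. The slow-to-fast difference changed from E18.5 to adult by -2.12 on the log2 scale for Slc16a10 (edgeR adjusted p = 1.81e-16) and by 1.69 for Dio2 (2.87e-08). Among adults, the slow-to-fast difference of Slc16a10 in the shank departed from that in the thigh by -1.08 (edgeR adjusted p = 0.00255), and this call was lost with the left-out library.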

How the results depend on the processing

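Low counts of Dio3 and of Thrb at E18.5, the date tags of the embryos and the scaling limit these results. Of the mean levels recomputed without TMM factors or with the left-out library, 24 moved by more than their SD and 21 did not. The settings by date were chosen after seeing the data. The number of the genes called moved by over 1.5 times in these cases, and in the other comparisons by at most 1 gene: adult shank against thigh slow-to-fast difference, 0 with the left-out library; E18.5 slow-biased against fast-biased muscles, 1 with the animal as a replicate block; E18.5 vastus intermedius against vastus lateralis, 1 with animals C, D and E only, and 0 to 1 when 1 animal was left out (1 without B); soleus between the stages, 3 with A, B and F and 3 with C, D and E; adult thigh against shank, 1 to 3 when 1 animal was left out (1 without D, E or F); gastrocnemius between the stages, 2 to 4 (2 without adult B). The replicate block also gave a call for Thra between E18.5 thigh and shank (0.11, edgeR adjusted p = 0.0475), lost the one for Thrb between adult thigh and shank (0.0506) and changed no other call.

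Without TMM factors, mean levels ran against the called rise of Slc16a10 in soleus and did not show the called lower Thra of slow-biased adult muscles. The fold changes that changed sign between fits had not been called in the fit reported. For Thrb at E18.5 with C, D and E only, the slow-to-fast difference was -0.94, soleus minus gastrocnemius -0.91 and vastus intermedius minus vastus lateralis -0.98; soleus minus gastrocnemius was -0.13 with limma-voom, thigh minus shank -0.51 with A, B and F, and the stage difference -0.80 with A, B and F. For Dio2, E18.5 soleus minus gastrocnemius was -0.0496 with limma-voom, -0.0395 with the replicate block and -0.34 with C, D and E. Its stage change was -0.0639 in gastrocnemius with upper-quartile scaling, and in vastus intermedius -0.0541 with the left-out library, -0.0945 with upper-quartile scaling, -0.0087 with no filter, -0.0039 with limma-voom, -0.0231 with DESeq2 and -0.21 with C, D and E. For Slc16a10 at E18.5, the slow-to-fast difference was -0.0685 with C, D and E and vastus intermedius minus vastus lateralis 0.0189 with A, B and F. The stage difference of Dio3 was 0.36 with the left-out library and 0.23 with C, D and E.

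Leaving out 1 animal at a time changed the sign within these ranges: Thrb at E18.5, slow minus fast -0.16 to 0.69, soleus minus gastrocnemius -0.11 to 0.80, vastus intermedius minus vastus lateralis -0.21 to 0.93, and thigh minus shank -0.0642 to 0.53; Dio2, E18.5 soleus minus gastrocnemius -0.23 to 0.0861, stage change -0.0826 to 0.16 in gastrocnemius and -0.24 to 0.12 in vastus intermedius; stage difference, Thrb -0.16 to 0.72 and Dio3 -0.51 to 0.28. Upper-quartile scaling moved the median stage change of all genes by -0.158 in gastrocnemius, -0.102 in vastus intermedius and -0.105 in vastus lateralis relative to TMM.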
